A study of Saccharomyces cerevisiae with 25 samples.

Results

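The outer layer of the yeast cell wall is made of mannoproteins, secreted proteins that carry long mannose chains. Most are first held by a glycosylphosphatidylinositol (GPI) anchor at the plasma membrane and then linked to the beta-glucan of the wall, while the PIR proteins, named for their internal repeats, are bound to glucan directly through those repeats. The wall is rebuilt as cells enter starvation, and the cell wall integrity pathway, with the kinase Slt2 and the transcription factor Rlm1 at its end, is known to act on several of these genes. The genes followed here were 10 of 6650 named genes in the deposited table. They were listed by name, with no threshold on a measured value, but with earlier results of these data known. They are the GPI protein genes SED1, SPI1, PST1, CWP1, CWP2 and CCW12, the PIR genes PIR1, PIR3 and HSP150 (also called PIR2), and YGP1, which encodes a secreted glycoprotein.

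All libraries came from Saccharomyces cerevisiae BY4741, a laboratory strain whose haploid cells are of mating type a, with a yellow fluorescent protein gene behind the PHO84 promoter (pho84pr-YFP) and a DAmP allele of PHO85 (pho85 damp), an insertion after the coding sequence that destabilises the transcript. Pho85 is the cyclin-dependent kinase of the phosphate pathway. The genotype was the same in every group. One library was made from cells in high phosphate medium at 0 min, and 24 were made at intervals of 15 min between 15 and 360 min in medium without phosphate. Libraries from 15 to 120 min were pooled as early, those from 135 to 240 min as middle and those from 255 to 360 min as late, 8 in each window. Every time point was sampled once, so a p-value here measures only the spread between neighbouring time points. Cells transferred to fresh high phosphate medium were not analysed here, so in contrasts with 0 min loss of phosphate cannot be told apart from the transfer itself, and no strain with intact PHO85 was analysed here.

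The unit of level is RPM, the reads of a gene per 1000000 reads of all genes listed in that library. A gene under 10 reads has no value and is called unlisted. The 0 min library held 4954493 listed reads, the 19 deeper libraries without phosphate held 169769 to 1981423, and the 5 shallow ones at 45, 75, 90, 210 and 330 min held 766.5 to 81208. The lowest RPM that could be listed was 2.02 to 58.9 in the deeper libraries and 123 to 13046 in the shallow ones, so a gene listed in a shallow library tends to read high there. Ribosomal protein genes took 33.7% of listed reads at 0 min and 4.07% to 16.1% in the late window, so the RPM of other genes is set against a changing remainder; the part of this fall in the results below was not tested beyond the rescaled values given with them. The median of all 4364 tested genes lay 0.35 above 0 on the log2 scale in late minus early and 0.48 in late minus 0 min. In bulk RNA, fewer cells that express a gene and less of its RNA per cell cannot be told apart.

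Upstream sequences of 5 of the genes are printed: a pair of genes with a stress response motif that both rose, a pair with a wall pathway motif that took different courses, and CCW12, the most abundant transcript. Each is a stretch of 300 bases in build R64 that starts 400 bases before the start codon and leaves out the 100 bases next to it, read 5′ to 3′ on the strand of the gene from the RefSeq genome, and motif matches are in capitals. The stress response element AGGGG, bound by Msn2 and Msn4, was matched on either strand upstream of SPI1 at chrV:467970-468269 (+ strand), with 3 matches, and of SED1 at chrIV:600393-600692 (+ strand), with 1.
SPI1: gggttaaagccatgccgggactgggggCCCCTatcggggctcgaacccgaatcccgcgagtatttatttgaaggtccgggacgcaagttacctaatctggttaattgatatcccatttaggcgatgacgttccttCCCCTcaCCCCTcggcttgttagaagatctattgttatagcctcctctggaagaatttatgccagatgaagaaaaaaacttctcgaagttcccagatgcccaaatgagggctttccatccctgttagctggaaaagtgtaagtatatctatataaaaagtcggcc
SED1: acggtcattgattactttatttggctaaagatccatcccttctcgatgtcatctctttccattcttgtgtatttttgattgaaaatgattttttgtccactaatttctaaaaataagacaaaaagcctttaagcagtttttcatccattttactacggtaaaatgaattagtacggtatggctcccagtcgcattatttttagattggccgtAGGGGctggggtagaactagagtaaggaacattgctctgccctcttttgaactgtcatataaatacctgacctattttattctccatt
The core of the Rlm1 site (CTA, any 4 bases, TAG), which reads the same on both strands, was matched upstream of PST1 at chrIV:563127-563426 (+ strand) and of CWP1 at chrXI:260732-261031 (+ strand).
PST1: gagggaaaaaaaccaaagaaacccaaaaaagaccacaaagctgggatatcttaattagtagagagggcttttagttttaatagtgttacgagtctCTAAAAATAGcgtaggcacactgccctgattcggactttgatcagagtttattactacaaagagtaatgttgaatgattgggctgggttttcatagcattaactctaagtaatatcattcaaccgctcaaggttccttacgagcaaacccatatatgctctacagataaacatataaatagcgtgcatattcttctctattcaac
CWP1: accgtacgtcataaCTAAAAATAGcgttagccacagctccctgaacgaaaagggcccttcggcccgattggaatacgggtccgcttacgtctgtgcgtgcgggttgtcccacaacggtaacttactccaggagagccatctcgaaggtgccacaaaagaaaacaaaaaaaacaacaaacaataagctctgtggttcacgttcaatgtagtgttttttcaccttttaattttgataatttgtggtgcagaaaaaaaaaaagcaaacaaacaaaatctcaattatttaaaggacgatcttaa
The motif CGCGAAA, bound by the G1/S factor SBF, was matched on the opposite strand upstream of CCW12 at chrXII:370199-370498 (- strand).
CCW12: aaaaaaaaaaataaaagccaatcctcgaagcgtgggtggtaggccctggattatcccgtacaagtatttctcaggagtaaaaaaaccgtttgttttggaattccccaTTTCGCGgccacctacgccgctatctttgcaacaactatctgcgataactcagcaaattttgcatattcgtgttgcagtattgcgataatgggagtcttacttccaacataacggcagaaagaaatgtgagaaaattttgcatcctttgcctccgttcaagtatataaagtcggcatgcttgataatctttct
Of the CCW12 stretch, 108 bases lie in YLR111W. Among the genes whose stretches are not printed, there were matches to AGGGG and the Rlm1 core upstream of PIR3, the Rlm1 core upstream of HSP150 and CGCGAAA upstream of CWP2. CACGTG, the Pho4 site, was matched in 0 of the 10. Of the 10 genes, 3 held AGGGG, 4 the Rlm1 core and 2 CGCGAAA. Over the same stretch of 6001 protein-coding genes, AGGGG was found in 23.5%, the Rlm1 core in 5.53%, CACGTG in 4.55% and CGCGAAA in 4.53%, on either strand. The printed pairs were chosen with their courses known, so a link between motif and course was not tested. No match here was shown to be a site in use.

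Of the 10 genes, 9 were listed widely enough to be tested, and 6 of these 9 rose from the early to the late window (SED1, SPI1, PST1, CWP2, PIR1 and HSP150). With limma 0 of the 9 were lower, although CCW12 passed as lower under one rescaling described with it. The rises ran from 1.86-fold to 4.44-fold, and the median log2 change of the 9 was 0.95 against 0.35 over all tested genes. In that contrast 37.1% of the 4364 tested genes were called, 29.8% higher and 7.36% lower (limma, adjusted p under 0.05). The 6 calls held in each of 8 alternative scalings, filters and library sets and in all 24 fits that left out 1 library. Against 0 min, 4 of the 9 were higher in the late window (SED1, SPI1, PST1 and PIR1), where 19.5% of all genes were called, 15.1% higher and 4.35% lower. Between the early window and 0 min 0 of the 9 passed limma, against 0.229% of all genes, and the median log2 change of the 9 was 0.35 against 0.12; SPI1 alone of the 9 had an unadjusted p under 0.05 (0.0463).

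**Figure D1:**
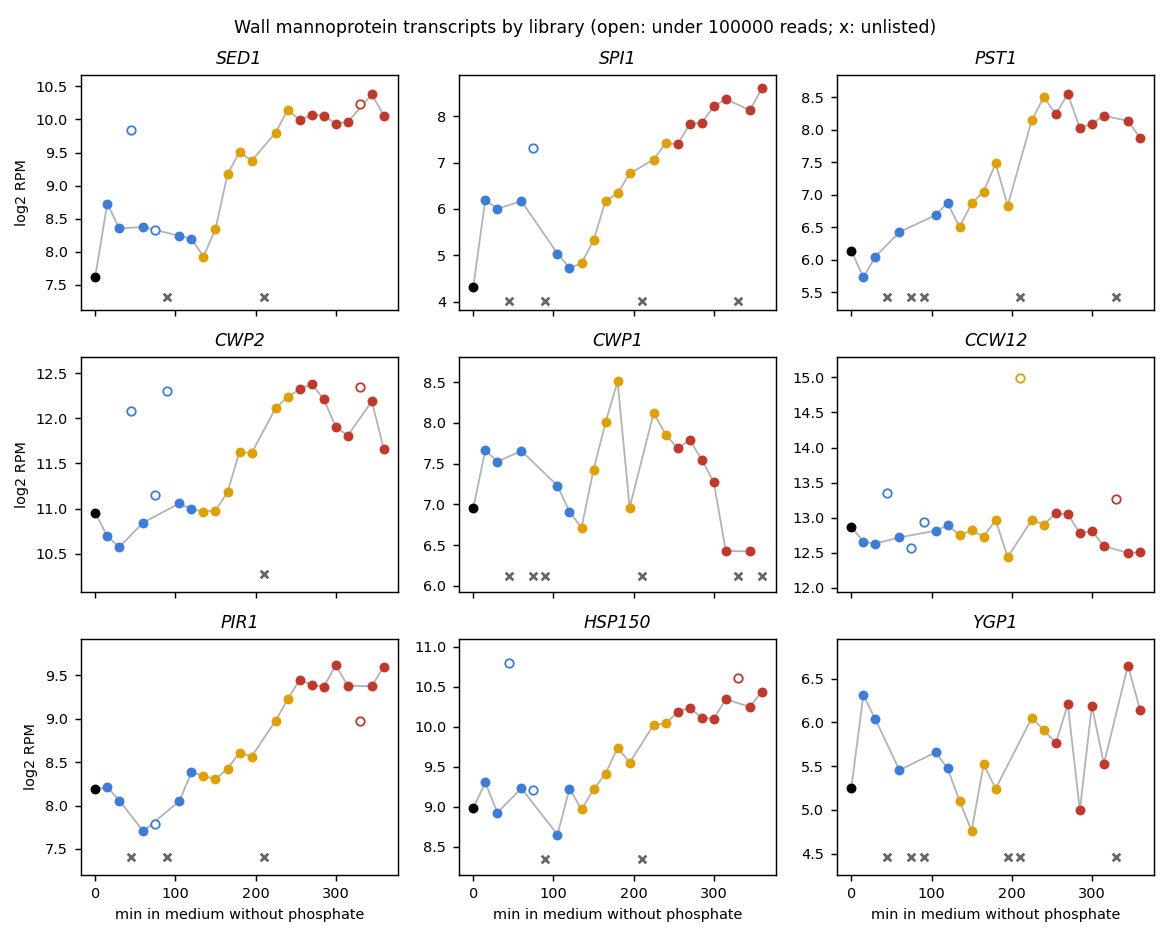
Level of each listed gene in log2 RPM against minutes in medium without phosphate, 1 point a library (black 0 min, blue early, amber middle, red late), with open points for shallow libraries, crosses at the foot of a panel for libraries in which the gene was unlisted, and a line through the deeper libraries. SED1, SPI1, PST1, CWP2, PIR1 and HSP150 end above their early deeper libraries, the deeper CCW12 libraries lie between 12.44 and 13.06, and CWP1 peaks at 8.51 at 180 min and declines to 6.42.

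SED1, which encodes a major structural protein of the wall in stationary phase, stood at 196 RPM at 0 min. Its early libraries ran from 293 to 916 with a median of 327 (n = 7), the middle ones from 243 to 1135 with a median of 663 (n = 7) and the late ones from 980 to 1333 with a median of 1067 (n = 8). Each of the 8 late libraries lay above every early one, and the early maximum came from the shallow 45 min library, where 17 reads were listed. SED1 was 2.85-fold higher late than early (log2 change 1.51, SE 0.27; limma, adjusted p = 1.02e-04) and 5.54-fold over 0 min (log2 change 2.47, SE 0.56; limma, adjusted p = 0.00407). The course was not even. The level was 423 RPM at 15 min, 327 at 30 min and 331 at 60 min, fell back to 243 at 135 min, and every deeper library from 165 min on was above every early deeper one.

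SPI1, a paralog of SED1 known for its induction by weak acids and in stationary phase, had the largest change of the 9 in both contrasts. It stood at 19.98 RPM at 0 min, from 99 reads. The early libraries ran from 26.5 to 160 with a median of 68.0 (n = 6) and the middle ones from 28.4 to 171 with a median of 80.8 (n = 7). The late ones ran from 169 to 389 with a median of 280 (n = 7), all above every early library. The rise was 4.44-fold over the early window (log2 change 2.15, SE 0.39; limma, adjusted p = 1.64e-04) and 13.4-fold over 0 min (log2 change 3.74, SE 0.75; limma, adjusted p = 0.0025). SPI1 shared the early hump of SED1, with 73.5 RPM at 15 min and 71.9 at 60 min but 26.5 at 120 min, from 25, 41 and 28 reads. This shape was not tested. It was not limited to these genes, since CWP1 and YGP1 also read higher at 15 min (203 and 79.4 RPM) than at 135 min (105 and 34.3). Its rise went on within the late window, from 169 RPM at 255 min to 389 at 360 min, and late minus middle was called too (log2 change 1.79, SE 0.37; limma, adjusted p = 0.0109).

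PST1 encodes a GPI protein of the ECM33 family that is secreted by cells rebuilding their wall. It stood at 70.4 RPM at 0 min, at 52.9 to 117 with a median of 85.9 in the early window (n = 5), at 90.4 to 364 with a median of 132 in the middle one (n = 7), and at 236 to 376 with a median of 282 in the late one (n = 7). The early and late ranges did not touch. PST1 rose 3.52-fold between them (log2 change 1.81, SE 0.28; limma, adjusted p = 2.24e-05) and 4.08-fold over 0 min (log2 change 2.03, SE 0.51; limma, adjusted p = 0.00867). It lacked the early hump, with its lowest value at 15 min, and went from 114 RPM at 195 min to 284 at 225 min, the former from 22 reads.

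CWP1 and CWP2 encode small GPI wall proteins, lie on chromosome XI 1600 bases apart on the same strand, and share no run of coding bases longer than 12. CWP2, one of the most abundant wall protein transcripts, stood at 1982 RPM at 0 min. Over the deeper libraries it ran from 1524 to 2130 in the early window with a median of 1839 (n = 5) and from 3228 to 5325 in the late one with a median of 4661 (n = 7), and these ranges did not overlap. Over all libraries they did, because the shallow libraries at 45 and 90 min read 4312 and 5041 from 80 and 25 reads. CWP2 was 1.86-fold higher late than early (log2 change 0.89, SE 0.27; limma, adjusted p = 0.00964), with a log2 change of 1.23 without the shallow libraries. Within the late window it declined from 5325 RPM at 270 min to 3228 at 360 min. Against 0 min its log2 change was 1.15 (SE 0.57; limma, adjusted p = 0.15) with them and 1.11 (limma, adjusted p = 0.0417) without them.

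CWP1 took another course. It stood at 124 RPM at 0 min and at 203 at 15 min, fell to 105 at 135 min, climbed to 364 at 180 min and then declined through 278 at 225 min to 85.7 at 345 min. It was unlisted at 360 min, where fewer than 58.9 RPM could not be listed, and the 195 min library departs from this course with 124 RPM from 24 reads. The window means hide this, at 172 RPM in the early (n = 5), 219 in the middle (n = 7) and 157 in the late window (n = 6), and late minus early came to -0.21 on the log2 scale (SE 0.31; limma, adjusted p = 0.625). The ratio of CWP1 to CWP2 within a library does not depend on scaling. Its log2 value was -4.00 at 0 min, -3.44 ± 0.49 in the early window (SD, n = 5) and -4.94 ± 0.50 in the late one (SD, n = 6). All 6 late libraries lay below every early one, a difference of -1.51 (SE 0.30; exact two-sided permutation test, p = 0.00216, the smallest these libraries allow, and adjusted p = 0.00433 over 4 pairs). The middle libraries ran from -4.65 to -3.12, and of these the 195 min library alone, with 24 reads of CWP1, reached the late range.

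CCW12 encodes the GPI protein that growing cells depend on most for a stable wall, and its transcript was the most abundant of the 10. It stood at 7477 RPM at 0 min, at 6059 to 10457 with a median of 6970 in the early window (n = 8), at 5546 to 32614 with a median of 7433 in the middle one (n = 8), and at 5779 to 9849 with a median of 7104 in the late one (n = 8). The value of 32614 came from 25 reads at 210 min. The windows overlapped, and late minus early was -0.00 on the log2 scale (SE 0.28, 95% interval -0.58 to 0.58; limma, adjusted p = 1). Scaled to reads outside the ribosomal protein genes, over the deeper libraries, that log2 change was -0.45 (limma, adjusted p = 0.0197), so the absence of a call depends on the scaling. YDR134C (CCW22), a near relative annotated as a pseudogene, was 3.08-fold higher late than early (log2 change 1.62, SE 0.29; limma, adjusted p = 1.08e-04).

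**Figure D2:**
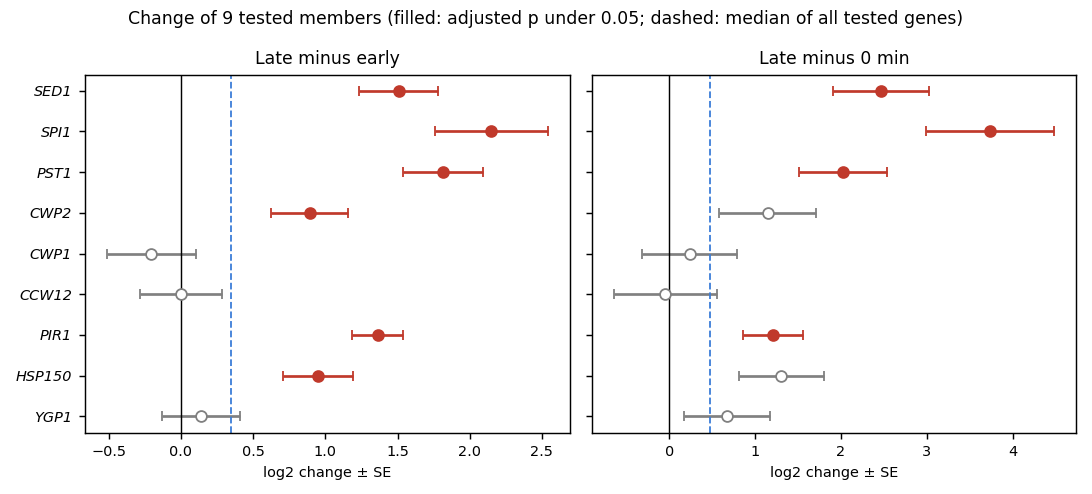
Log2 change of 9 genes with its standard error, for late minus early (left) and late minus 0 min (right), filled where the limma adjusted p was under 0.05, with a dashed line at the median of all tested genes. The largest changes are of SPI1, at 2.15 and 3.74, while CCW12 and CWP1 lie at or below the dashed line in both panels.

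The PIR genes were unlike each other in what was listed. PIR1 stood at 291 RPM at 0 min, at 209 to 334 with a median of 266 in the early window (n = 6), at 316 to 599 with a median of 378 in the middle one (n = 7) and at 504 to 786 with a median of 670 in the late one (n = 8). All 8 late libraries were above every early one. Of the 6 genes that rose it had the smallest SE and the smallest adjusted p (2.57-fold late over early, log2 change 1.36, SE 0.18; limma, adjusted p = 4.29e-06). Over 0 min the rise was 2.31-fold (log2 change 1.21, SE 0.35; limma, adjusted p = 0.0181), a call lost when the deeper libraries were centred on their medians (log2 change 0.73; limma, adjusted p = 0.0573).

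HSP150, whose product is induced by heat shock, stood at 506 RPM at 0 min. Over the deeper libraries it ran from 402 to 632 with a median of 599 in the early window (n = 5) and from 1099 to 1391 with a median of 1208 in the late one (n = 7), without overlap, while the shallow 45 min library read 1779 from 33 reads. HSP150 rose 1.93-fold from early to late (log2 change 0.95, SE 0.24; limma, adjusted p = 0.00299), with a log2 change of 1.17 without the shallow libraries. Against 0 min the log2 change was 1.30 (SE 0.50; limma, adjusted p = 0.0633), and 1.26 (limma, adjusted p = 0.00918) without the shallow libraries. Its log2 ratio to CIS3, the PIR gene that faces it 574 bases away on chromosome X, was -0.42 ± 0.75 early (SD, n = 7) and 0.23 ± 0.35 late (SD, n = 8). That difference of 0.66 (SE 0.31) did not pass over 4 pairs (exact two-sided permutation test, p = 0.0469, adjusted p = 0.0626). Without the shallow libraries, of which that at 45 min was the highest and that at 75 min the lowest of the early ones, the difference was 0.79 (exact two-sided permutation test, p = 0.00253). The early deeper ratios, at most -0.28 at 15 min, then all lay below the late ones, at least -0.18 at 300 min. HSP150 and CIS3 share an identical run of 65 coding bases, and 30 of the 36-base runs of HSP150 also occur in CIS3. Their values are therefore not fully separate measures, and the part of shared reads in this ratio was not tested.

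PIR3 was unlisted in all 25 libraries, 1 of 981 such genes among the 6650 named. PIR3 thus had under 10 counted reads in each library, or below 2.02 RPM at 0 min. It lies on chromosome XI head to head with PIR1, with 1581 bases and no annotated gene between them. Their longest shared run of coding sequence, 81 bases at base 39 of each, shows how alike they are.
PIR1 and PIR3: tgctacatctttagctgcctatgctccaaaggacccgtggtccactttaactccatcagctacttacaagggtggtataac
Of all 36-base runs of the PIR3 coding sequence 81.8% occur once in the genome, against 80.2% for PIR1, 86.2% for HSP150, 87.4% for SED1 and 100% for the other 6. Read length and the treatment of reads with several matches were not stated in the sources used here. Taking the lowest listed value of a library as 10 reads, HSP150 came to a count that was not whole, to within 0.01, in 20 of its 23 libraries, PIR1 in 4 of 22 and SED1 in 1 of 23, and the other 6 listed genes in 0. CIS3, which shares a run of 65 identical coding bases with HSP150, also came to counts that were not whole in most of its libraries. At 0 min these were 4004.07 reads for CIS3 and 2505.93 for HSP150, with fractions that complement each other. How reads were divided between them was not tested. The values of HSP150, CIS3, PIR1, PIR3 and SED1 are therefore uncertain to the extent that reads could be split between near-identical sequences.

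YGP1, known for its induction by nutrient limitation, had the lowest level per length and no clear course. It stood at 38.2 RPM at 0 min, at 43.8 to 79.4 with a median of 50.5 early (n = 5), at 27.1 to 66.2 with a median of 41.8 in the middle (n = 6) and at 31.9 to 100.3 with a median of 70.7 late (n = 7). The ranges overlapped, and late minus early was 0.14 on the log2 scale (SE 0.27, limma, adjusted p = 0.716), within a 95% interval of -0.42 to 0.70. The late libraries held only 12 to 48 reads of it. Its paralog SPS100, a spore wall gene, was listed in 5 libraries with at most 29 reads, so their ratio could not be tested.

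The order of the 9 genes was compared per kilobase of coding length, as RPM per kb. At 0 min it ran CCW12 (18599), CWP2 (7104), HSP150 (407), PIR1 (284), SED1 (193), CWP1 (172), PST1 (52.8), SPI1 (44.7) and YGP1 (35.8). In the deeper late libraries CCW12, at 17422 ± 2916 (SD, n = 7), and CWP2, at 15613 ± 2893 (SD, n = 7), had means within each other's spread between libraries. Within a library, CCW12 still lay above CWP2 in each of these except at 345 min (14375 against 16704). SED1, at 1059 ± 117 (SD, n = 7), had moved from below HSP150, at 976 ± 84.6 (SD, n = 7), to within its spread, and SPI1, at 616 ± 163 (SD, n = 7), to within that of PIR1, at 686 ± 53.2 (SD, n = 7). CWP1, at 218 ± 82.4 (SD, n = 6), and PST1, at 217 ± 33.2 (SD, n = 7), had like means but crossed over within the window. CWP1 was the higher at 255 min (286 against 228) and the lower at 345 min (119 against 211). YGP1 stayed lowest at 60.3 ± 21.0 (SD, n = 7).

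The 10 genes together took 1.07% of listed reads at 0 min, 1.02% ± 0.07 in the early deeper libraries (SD, n = 5), 1.27% ± 0.25 in the middle (SD, n = 7) and 1.51% ± 0.18 in the late ones (SD, n = 7). CCW12 held 69.8% of the reads of these genes at 0 min, 65.4% to 68.0% in the early and 40.1% to 49.4% in the late deeper libraries. Over the deeper libraries the summed share was highest at 270 min, at 1.77%, and was 1.30% at 360 min.

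**Figure D3:**
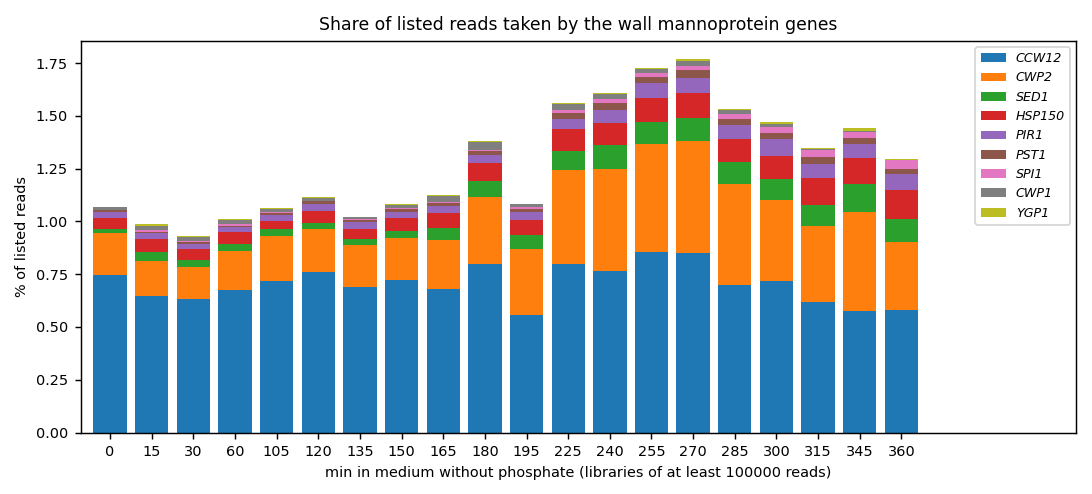
Percent of listed reads taken by each of 9 genes, stacked, in each deeper library by minute, with the bar starting at 0. The whole bar is 1.07% at 0 min, 1.77% at 270 min and 1.30% at 360 min, and CCW12 makes up 69.8% of it at 0 min and 44.8% at 360 min.

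Timing was compared by the first deeper library from which all later deeper ones lay above every early deeper one. That was 165 min for SED1, CWP2, PIR1 and HSP150, 180 min for SPI1 and 225 min for PST1, and no such point existed for CWP1, CCW12 or YGP1. The point of SPI1 hangs on a small margin, at 72.3 RPM at 165 min against an early deeper maximum of 73.5 from 25 reads at 15 min. That of PIR1 does too, at 343 RPM at 165 min against 334 at 120 min, so the order of PIR1 and SPI1 is not settled. Margins at 165 min were also narrow for HSP150 (682 against 632) and CWP2 (2322 against 2130). The later point of PST1 rests on 1 library, since it stood at 132 RPM at 165 min and 179 at 180 min, above the early maximum of 117, and below it after 165 min only at 195 min, at 114 from 22 reads. Over the windows, 2 of the 9 genes rose from early to middle, PST1 (log2 change 0.99, SE 0.28; limma, adjusted p = 0.0383) and PIR1 (0.60, SE 0.18; limma, adjusted p = 0.0467), where 7.08% of all genes were called, 3.9% higher and 3.19% lower. Without the shallow libraries 4 were called (CWP2 and SED1 as well), and with library weights 5. Both main calls were lost in the deeper libraries centred on their medians, with log2 changes of 0.76 for PST1 and 0.32 for PIR1. They were also lost with scaling outside ribosomal protein genes (0.73 and 0.29) and with quantile normalization (0.75 and 0.44). With the looser filter the PIR1 call was lost too (0.60). Leaving out 1 library ended the PST1 call for 9 of 24 libraries (15, 30, 60, 105, 120, 180, 195, 225 and 240 min) and the PIR1 call for 16. Over the 24 fits the log2 changes ran from 0.80 to 1.13 for PST1 and from 0.50 to 0.67 for PIR1. From middle to late SED1 (0.91, SE 0.27; limma, adjusted p = 0.0484), SPI1 and PIR1 (0.76, SE 0.17; limma, adjusted p = 0.0133) were called higher, where 5.55% of all genes were called, 3.9% higher and 1.65% lower. Without the shallow libraries 5 were called (HSP150 and PST1 as well), and with library weights or quantile normalization 6. The SED1 call was lost on leaving out any of 17 libraries, with log2 changes of 0.70 to 1.07 over the 24 fits, and kept without those at 45, 75, 90, 195, 210, 225 and 240 min, whereas PIR1 and SPI1 kept theirs in all 24 fits. For PIR1, the call from early to middle was kept without those at 45, 90, 135, 150, 165, 210, 330 and 360 min.

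PST1 and its relative ECM33, which encodes a GPI protein needed for the mannoprotein layer, were compared within libraries. The log2 ratio of PST1 to ECM33 was -2.73 at 0 min, -2.45 ± 0.50 in the early window (SD, n = 5) and -1.16 ± 0.17 in the late one (SD, n = 7), with all 7 late libraries above every early one. The difference was 1.29 (SE 0.23; exact two-sided permutation test, p = 0.00126, the smallest these libraries allow, and adjusted p = 0.00433 over 4 pairs). ECM33 itself rose 1.38-fold (log2 change 0.46; limma, adjusted p = 0.0481). The log2 ratio of SED1 to SPI1 was 2.46 ± 0.87 early (SD, n = 6) and 2.01 ± 0.42 late (SD, n = 7), which did not pass (difference -0.45, SE 0.39; exact two-sided permutation test, p = 0.242, adjusted p = 0.242). Without the shallow 75 min library, where SPI1 had 13 reads, that difference was -0.74 (exact two-sided permutation test, p = 0.0278).

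**Figure D4:**
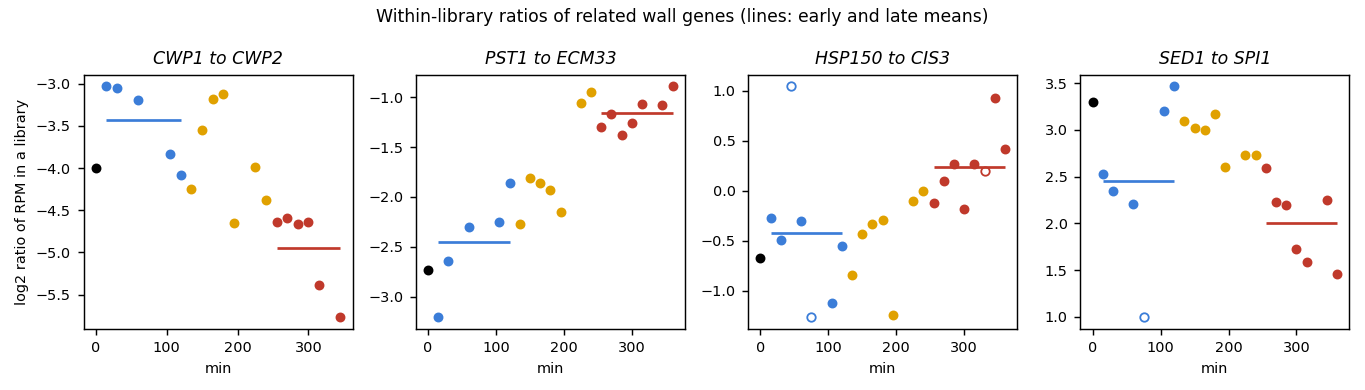
Log2 ratio of RPM of 2 related wall genes in each library against minutes, colours as for the levels by time, with lines at the early and late means. CWP1 to CWP2 goes from -3.44 to -4.94 and PST1 to ECM33 from -2.45 to -1.16. The early and late libraries of SED1 to SPI1 overlap, and those of HSP150 to CIS3 overlap only through the shallow 45 min library.

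Likeness of course was described by Pearson's r of log2 RPM over the 20 deeper libraries among 2475 genes listed in all of them, with no test, since the genes named are those with the largest r and all share the same libraries. SED1 was most like GND2 (r = 0.98, Spearman's rho 0.95), PRX1 and GAD1, SPI1 most like UGA2 (r = 0.97, rho 0.97), YNL115C and SPG4, and HSP150 most like HSP26 (r = 0.97, rho 0.97), FMP16 and GFD1. PIR1 was most like HPF1 (r = 0.96, rho 0.93), BUR6 and RNR4, PST1 most like ERG25 (r = 0.96, rho 0.89), GDH2 and CWP2, and CWP2 most like PDC1 (r = 0.98, rho 0.97), PST2 and PET10. CCW12 was most like GAS1 (r = 0.84, rho 0.88), which encodes a glucan-remodelling enzyme of the plasma membrane, TOS6 and HTB2. Among the 10 genes r lay between 0.77 and 0.95 for the pairs of the 6 that rose and between -0.20 and 0.28 for CCW12 with each of them.

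Lists of other wall genes were counted in the same way, against the 29.8% higher and 7.36% lower over all tested genes. Of 14 tested among 28 other GPI and wall protein genes, 6 were higher and 1 lower from early to late, with a median log2 change of 0.24 against 0.35 over all genes. HPF1, which encodes a heavily glycosylated wall protein, rose most (log2 change 3.24, SE 0.52; limma, adjusted p = 4.76e-05), then YDR134C, YLR194C (0.89) and CCW14 (0.72), while the wall protease gene MKC7 had a log2 change of -0.92. None of 5 tested among 7 other PIR and SUN genes was called with limma, and 2 were called without the shallow libraries. Of 17 tested glucan and chitin enzyme genes 6 were higher and 1 lower (median 0.47). The higher ones included GSC2, a stress-induced glucan synthase gene (1.95), EXG1 (1.23), KRE1 (0.90) and SCW4 (0.76), and UTR2, which encodes an enzyme that joins chitin to glucan, fell by 1.66 on the log2 scale. Of 20 mannosylation enzyme genes 6 were higher and 1 lower (median 0.30), a share of higher calls near that of all genes. The largest changes were those of MNN1 (1.52), MNN4, OCH1 (0.97), PMT5 (0.84) and KRE2 (0.76).

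Genes of the integrity pathway and of the stress response regulators were counted in the same contrast, against the same shares over all genes. Of 16 tested pathway genes 4 were higher and 0 lower (median log2 change 0.43), SDP1, a phosphatase gene acting on Slt2 (2.15), PKC1 (0.94), BCK1 (0.81) and ROM2 (0.55). The kinase gene SLT2 (0.55, limma, adjusted p = 0.0876) and RLM1 (0.91, limma, adjusted p = 0.0996) did not pass. Of 10 tested genes known to depend on Slt2 and Rlm1, outside the 10 wall genes, 4 were higher (median 0.53), GSC2, YLR194C, CRH1 (0.76) and DFG5 (0.55). The lists are not separate: GSC2 and CRH1 are also counted among the glucan and chitin genes, YLR194C among the other GPI genes and SLT2 in the pathway. Of 16 Msn2 and Msn4 targets 15 were higher (median 2.82), led by CTT1 (4.66), DDR2, ALD3, GLC3 and HSP26 (3.32). After median centring of the deeper libraries these counts became 4 higher and 2 lower for the other GPI genes, 5 and 4 for glucan and chitin, 5 and 2 for mannosylation, 2 and 1 for the pathway, 3 and 1 for the Slt2 and Rlm1 genes and 15 and 0 for Msn2 and Msn4. Over all genes the split went from 1300 higher and 321 lower to 673 and 683 (limma), and the 6 wall mannoprotein genes were still all called higher.

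**Figure D5:**
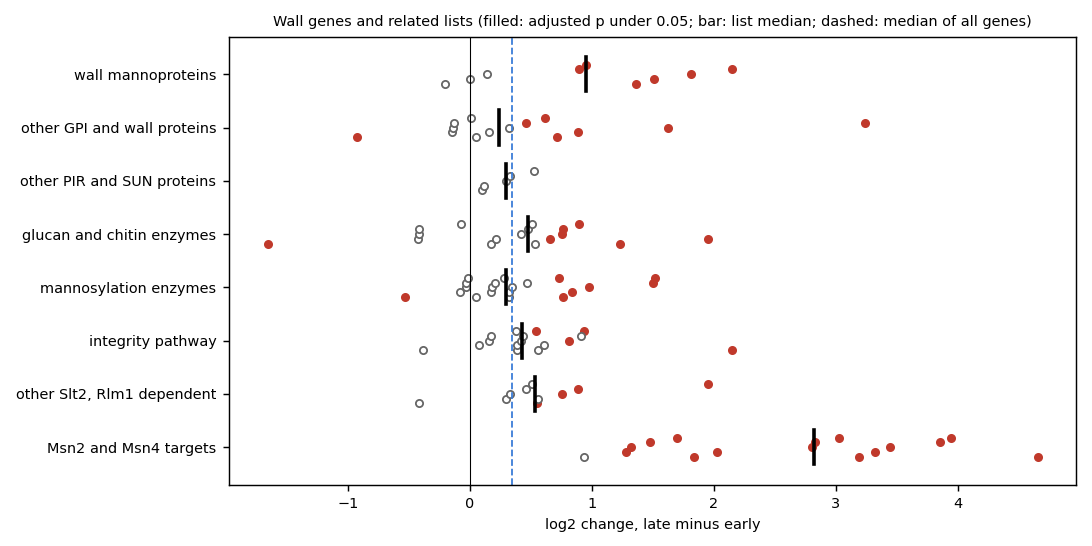
Log2 change from the early to the late window for each tested gene of 8 lists, filled where the limma adjusted p was under 0.05, with a bar at each list's median and a dashed line at the median of all tested genes (0.35). Some genes stand in several lists. The wall mannoproteins have a median of 0.95, the other wall and pathway lists have medians between 0.24 and 0.53, and the Msn2 and Msn4 targets lie at 2.82.

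Markers of other cell states were counted too. Of 12 sporulation and spore wall genes 11 were listed somewhere, SPS2 nowhere, and their summed level was 122 RPM at 0 min, 0 to 163 in the early, 150 to 287 in the middle and 155 to 212 in the late deeper libraries. A gene under the lowest RPM that a library could list, 2.02 to 58.9 in the deeper ones, adds nothing to its sum. Of the 12, 3 could be tested, and NDT80 alone was called higher from early to late (log2 change 1.36), where 29.8% of all tested genes were. Of 4 alpha mating type genes MF(ALPHA)2 was unlisted throughout, and their sum was 33.7 RPM at 0 min and at most 109 later. Their part in the results was not tested.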

How the data were processed

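RNA was extracted in plates from lyticase-treated cells and sequenced from cDNA on an Illumina instrument, per the labels' protocols. The submitters' processing notes name Bowtie and build R64, with counter, versions and strand setting not given in the sources used here. Per the labels values were normalized to 0 min, yet the deposited values are log2 RPM with 0 min as a column of its own: on the linear scale every column sums to 1000000, and the lowest value, shared by several genes, was taken as 10 reads. By that measure 93.4% to 95.3% of the values of a deeper library were whole reads within 0.01, so no count test was used. Of 6701 rows, 51 had no gene name and 6650 were kept. Positions and sequences come from RefSeq R64.

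Genes needed a mean of at least 10 RPM with unlisted values as 0, a value at 0 min and 4 or more values per window, which 4364 met. A mean per group was fitted to all 25 libraries with limma 3.58.1 (R 4.3.3, trend and robust empirical Bayes, unlisted values left out), with Benjamini-Hochberg adjustment over all tested genes at 0.05. On simulated late minus early values for 4364 genes, 98% of genes changed by 2 on the log2 scale were called. Of those changed by 1, 60% to 70% were called, and of the unchanged 0.144%. Whether these shares hold for the measured libraries, which are neighbouring time points of uneven depth, was not tested. Pair ratios used exact permutation tests over libraries (numpy 2.4.6), adjusted over the 4 of 7 planned pairs that could be computed. The members, the lists, the windows and the limit of 100000 reads for a deeper library were chosen with earlier results of these data known. Named besides the 10 members were up to 5 called genes of each list with the largest change and the 3 genes most like each member; YDR134C, ECM33, CIS3, SPS100, SLT2 and RLM1 are named as relatives or regulators. Some sequence and target list results are not reported here. Alternatives are given in the closing section.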

Additional observations from a re-analysis of the deposited data

Results flagged for a closer look

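Of 27 windows of 5 to 8 libraries examined for a member, 4 held a library that stood far from the others, where chance gives about 1 in 20. These came from 3 libraries, at 45, 210 and 330 min, all shallow, and that at 45 min counted for a pair of genes, so the 4 are not independent. At 45 min SED1 read 9.84 log2 RPM, from 17 reads, against 8.20 to 8.73 in the other early libraries, and HSP150 read 10.80, from 33 reads, against 8.65 to 9.30. At 210 min CCW12 read 14.99, from 25 reads, against 12.44 to 12.97 in the other middle libraries. At 330 min PIR1 read 8.98, from 15 reads, against 9.37 to 9.62 in the other late libraries.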

How the results depend on the processing

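The 6 calls from early to late were the same genes under 8 alternatives, which left out the shallow libraries, centred, rescaled or quantile normalized the deeper ones, weighted them, loosened or tightened the filter, or set unlisted values to a library's lowest. CWP1 and YGP1 could not be fitted where a gene had to be listed in every deeper library. Over all genes the number of calls moved more. For early minus 0 min the count of 10 became 4 with quantile normalization and 16 with library weights. For late minus 0 min the 849 calls (659 higher, 190 lower) became 1436 with library weights, and the split became 365 and 441 with median centring. For middle minus early the 309 calls became 520 without the shallow libraries, 190 scaled outside ribosomal protein genes, 1467 with weights, 715 for genes listed in all deeper libraries and 576 with unlisted values at the lowest. For late minus middle the 242 calls became 407, 430 (quantile), 689 (weights), 415 and 377. For late minus early the 1621 calls became 1049 with quantile normalization of fewer genes and 2398 with library weights (1968 higher, 430 lower). Where no construction shows it, the cause was not tested. Leaving out 1 library gave 7 to 11, 757 to 947, 10 to 825, 61 to 473 and 1303 to 1716 calls for these contrasts in order. The ratio differences then ran from -1.67 to -1.34 for CWP1 to CWP2, 1.10 to 1.44 for PST1 to ECM33, 0.52 to 0.90 for HSP150 to CIS3 and -0.74 to -0.25 for SED1 to SPI1, the last being -0.74 without the shallow libraries. No member's call changed sign. No paired analysis was possible because each library has a time point of its own. Depth limits YGP1, with 12 to 48 reads in the late libraries, and every value from a shallow library.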
